A study of Mus musculus with 2 samples.

Results

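The proteasome subunit genes were examined on expression arrays of mouse embryonic stem cells (ESCs) that lack the histone methyltransferase G9a. Members were all genes whose symbol in the array annotation reads Psm, a letter from a to g and a number, with the interferon-inducible *Psmb8* and *Psmb9* left out. This gave 45 genes of the 18194 named genes on the array, read by 97 of the probe sets that carry 1 gene symbol. The RefSeq table holds 46 such genes. The one left over, *Psme2*, shares its probe set with the near-identical *Psme2b* and was not analysed here.

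The comparison is of 1 G9a-KO array with 1 WT array, each of total RNA. The G9a-KO cells are a TT2-derived line without exons 26 and 27 of *G9a* (gene *Ehmt2*). The WT cells are TT2, an ESC line of an F1 embryo from a C57BL/6 mother and a CBA father. For both samples the labels list 800 nM 4-hydroxytamoxifen (4OHT) for 48 h to delete a conditional *G9a* allele, then 48 h without it. Whether WT cells were given the drug is not stated separately. The methods of the study instead cite a G9a-KO line reported earlier and name 4OHT only for the knockout of *Ring1b*. Labels and methods thus differ on how *G9a* was lost. The labels also list serum replacement, a little fetal calf serum and leukemia inhibitory factor (LIF), whereas the methods of the study name serum and LIF and place the G9a-KO cells on inactivated mouse embryonic fibroblasts. G9a-KO is 1 line, and each group is 1 array. No difference below can therefore be set against a spread between cultures, and no p-value was computed.

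The proteasome is the large protease that breaks down proteins tagged with ubiquitin. Its barrel-shaped core particle stacks rings of alpha subunits, which gate the entrance, on rings of beta subunits, some of which cut the peptide chain. A regulatory particle caps the core. Its base holds a ring of ATPases that unfold the substrate, and its lid removes the ubiquitin chain. Chaperones assemble the parts, and alternative activators such as the PA28 and PA200 proteins can open the core without the regulatory particle. In ESCs, the proteasome is known for its part in protein quality control and in limiting transcription at tissue-specific genes.

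Levels are log2 values minus the 75th percentile of all probe sets on the same array, and differences are G9a-KO minus WT of these levels. Each gene is read from its brightest probe set by the mean of both arrays. A probe set is called above the median if it passed the median of either array. Levels of different genes come from different probe sets and cannot be ranked against each other. A gene counted as higher or lower in G9a-KO where it passed 1.3-fold, the fold the study used for these arrays, which is a log2 difference of 0.38. The study called a gene where at least 1 probe passed the fold, whereas here the brightest probe set had to pass it.

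On the arrays as a whole, *Ehmt2* stood at 0.51 in G9a-KO and 2.05 in WT, 2.90-fold lower in G9a-KO, and its dimmer probe set at -2.07 in G9a-KO and -2.27 in WT. The 18 probe sets for RNA added before hybridization differed by -0.16 to 0.21 (SD 0.11). All 10 ESC markers examined, among them *Pou5f1* and *Nanog*, lay above the array median. Of these, 3 (*Pou5f1*, *Zfp42* and *Utf1*) were 1.37-fold to 1.73-fold lower in G9a-KO, beside 17.2% of all genes over 1.3-fold lower. Only 1 (*Dppa5a*) was over 1.3-fold higher (1.53-fold), beside 17.4%. The median difference of the 10 was -0.20. Their summed signal was 39962 in G9a-KO and 41681 in WT, and 24638 in G9a-KO and 31267 in WT without *Dppa5a*. All 12 primitive endoderm markers were over 1.3-fold higher in G9a-KO, beside 17.4% of all genes. Their summed signal was 18963 in G9a-KO and 1966 in WT. Of 9 fibroblast markers measured, 4 were over 1.3-fold higher in G9a-KO, beside 17.4% of all genes. These were *Col5a2* (8.32-fold), *Col6a3* (2.58-fold), *Lum* (1.98-fold) and *Col1a2* (1.78-fold). Below the median on both arrays lay 6 of the 9, *Lum*, *Col1a1* and *Col3a1* among them. The 9 markers summed to 626 in G9a-KO and 240.4 in WT. The part of these markers in the differences of proteasome genes was not tested, and in such bulk RNA more cells of a type and more RNA per cell cannot be told apart.

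The proteasome genes as a group stood at nearly the same level on both arrays. Their median difference was 0.025, beside 0.036 over all 18194 genes and -0.013 over the 6956 genes whose mean level lay above the 75th percentile. Of the 45 genes, 24 (53.3%) had a difference above 0 and 21 below, beside 53.4% above 0 for all genes and 48.9% for genes above the 75th percentile. All but 1 of the 45 lay above the 75th percentile on both arrays. The exception was *Psmb11*, a core subunit of the thymus, at -4.08 in G9a-KO and -3.81 in WT, below the median of both arrays.

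**Figure D1:**
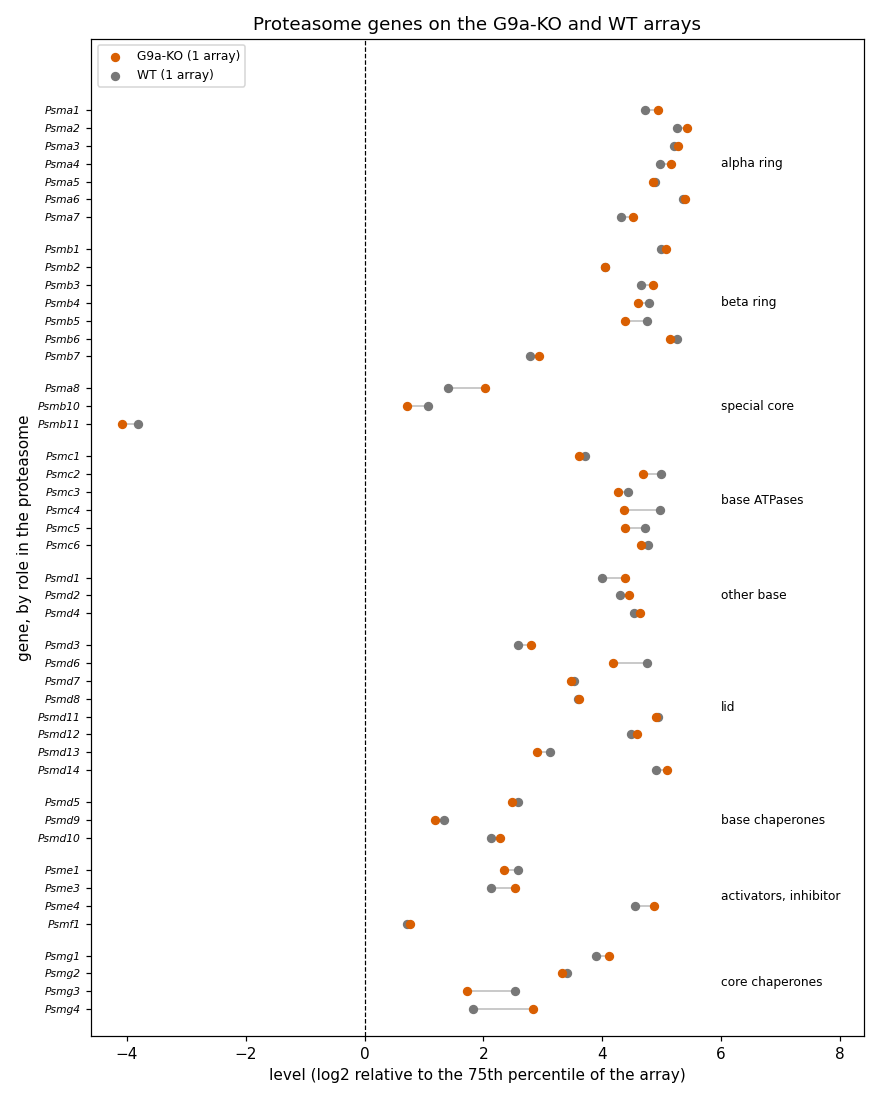
Level of 45 proteasome genes on the G9a-KO array (orange) and the WT array (grey), as log2 minus the array's 75th percentile (horizontal axis, dashed line at 0), 1 row per gene, grouped by role (special core: inducible or tissue-specific core subunits). The points of most rows nearly touch, *Psmg3* and *Psmg4* show the widest gaps, and *Psmb11* alone lies left of the dashed line.

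Few of these genes passed the fold by their brightest probe set. *Psma8*, *Psmd1*, *Psme3* and *Psmg4* (4 of 45) were over 1.3-fold higher in G9a-KO, beside 17.4% of all genes and 21.1% of genes above the 75th percentile. *Psmc4*, *Psmd6* and *Psmg3* (3 of 45) were over 1.3-fold lower, beside 17.2% and 23.2%. In either direction the share was 15.6% for proteasome genes, 34.6% for all genes and 44.3% for genes above the 75th percentile. The quartiles of the proteasome genes lay at -0.16 and 0.18, those of genes above the 75th percentile at -0.35 and 0.30. Genes above the 75th percentile had median levels of 1.71 in G9a-KO and 1.70 in WT. Proteasome genes had 4.37 in G9a-KO and 4.31 in WT, so the sets were not matched in brightness. These shares describe the 2 arrays and were not tested. With at least 1 probe set past the fold, the rule the study describes, 9 genes were higher and 5 lower, beside 24.6% and 22% of all genes. The split of 4 higher and 3 lower depended on how the arrays were scaled. It was 2 and 6 without a shift of the deposited values (beside 14.7% and 19.9% of all genes) and 2 and 7 with centring on the array median (13.0% and 22.3%). It was 3 and 4 with quantile normalization (15.2% and 19.3%) and with lowess correction (16.1% and 18.3%). Relative to the 75th percentile shift, leaving it out lowers every difference by 0.056 and median centring by 0.10.

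**Figure D2:**
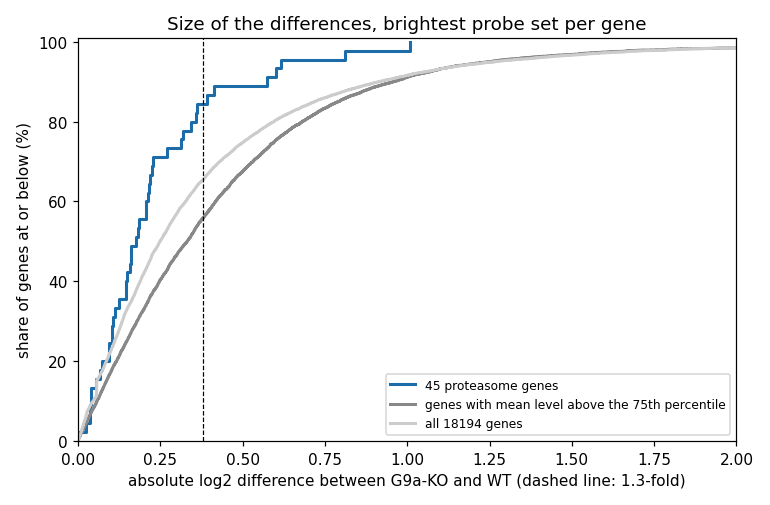
Share of genes (vertical axis, %) whose absolute log2 difference between G9a-KO and WT is at or below the value on the horizontal axis, for 45 proteasome genes (blue), genes with mean level above the 75th percentile (dark grey) and all 18194 genes (light grey), with 1.3-fold as a dashed line. The median absolute difference is 0.18 for proteasome genes, 0.33 for genes above the 75th percentile and 0.25 for all genes.

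The alpha ring genes *Psma1* to *Psma7* differed by small amounts, mostly above 0. The values were above 0 for 6 of 7, beside 53.4% of all genes, with a median of 0.16 and a range of -0.039 to 0.21. The RNA added before hybridization differed by -0.16 to 0.21, so these differences were about as small as those of the control RNA. Past 1.3-fold were 0 of 7, beside 34.6% of all genes. The widest were *Psma7*, at 4.53 in G9a-KO and 4.31 in WT (0.21), and *Psma1*, at 4.94 in G9a-KO and 4.73 in WT (0.21). *Psma5* stood at 4.85 in G9a-KO and 4.89 in WT, and *Psma6* at 5.40 in G9a-KO and 5.36 in WT, so both gave almost the same reading on the 2 arrays. The median of the ring stayed above 0 in all 9 alternative settings (0.060 to 0.19), although only 4 of 7 genes were above 0 when the arrays were centred on their medians. A second probe set of *Psma7* gave 0.17, whereas a dim one of *Psma1*, above the median on the G9a-KO array only, gave 0.62.

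The beta ring was more mixed. Of *Psmb1* to *Psmb7*, 4 lay above 0 and 3 below, with a median of 0.0015 that was below 0 in 6 of 9 alternative settings. Past 1.3-fold were 0 of 7, beside 34.6% of all genes. *Psmb5*, which carries the chymotrypsin-like active site, stood at 4.39 in G9a-KO and 4.75 in WT. This difference of -0.36 is the widest of both rings. It passes 1.3-fold under each of the 4 other scalings, the only settings that could move it, since *Psmb5* has 1 probe set. All 4 lowered the value, to between -0.46 and -0.39, from just short of the fold. Passing in all 4 therefore does not count as repeated support. The other catalytic subunits were closer to 0. *Psmb6*, with the caspase-like site, was at 5.15 in G9a-KO and 5.25 in WT (-0.11), and *Psmb7*, with the trypsin-like site, at 2.93 in G9a-KO and 2.79 in WT (0.14). Among the subunits without catalytic activity, *Psmb4* was at 4.61 in G9a-KO and 4.79 in WT, with -0.18 and -0.27 by its 2 probe sets, and *Psmb3* at 4.85 in G9a-KO and 4.65 in WT, with 0.21 and 0.13. *Psmb1* and *Psmb2* differed by 0.094 and 0.0015. The second probe sets of *Psmb3* and *Psmb4* thus repeated differences in opposite directions, whereas one of *Psmb1* gave -0.091, on the other side of 0 from its brightest.

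Core subunits that replace a standard one in particular tissues or under interferon went separate ways. *Psma8*, which takes the place of *Psma7* in the testis during meiosis, stood at 2.03 in G9a-KO and 1.41 in WT and was 1.53-fold higher in G9a-KO. It has 1 probe set, and its difference of 0.62 ranged from 0.52 to 0.64 over 9 alternative settings, past 1.3-fold in all of them. *Psmb10*, the immunoproteasome counterpart of *Psmb7*, stood at 0.71 in G9a-KO and 1.07 in WT (-0.36, short of 1.3-fold). The other immunoproteasome genes, not among the 45, were *Psmb9* at -0.93 in G9a-KO and -0.33 in WT (1.51-fold lower in G9a-KO) and *Psmb8* at -2.29 in G9a-KO and -1.91 in WT (-0.38). *Psmb8* lay near the array medians of -2.13 in G9a-KO and -2.24 in WT, and its dimmer probe set differed by 0.17 in the opposite direction.

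**Figure D3:**
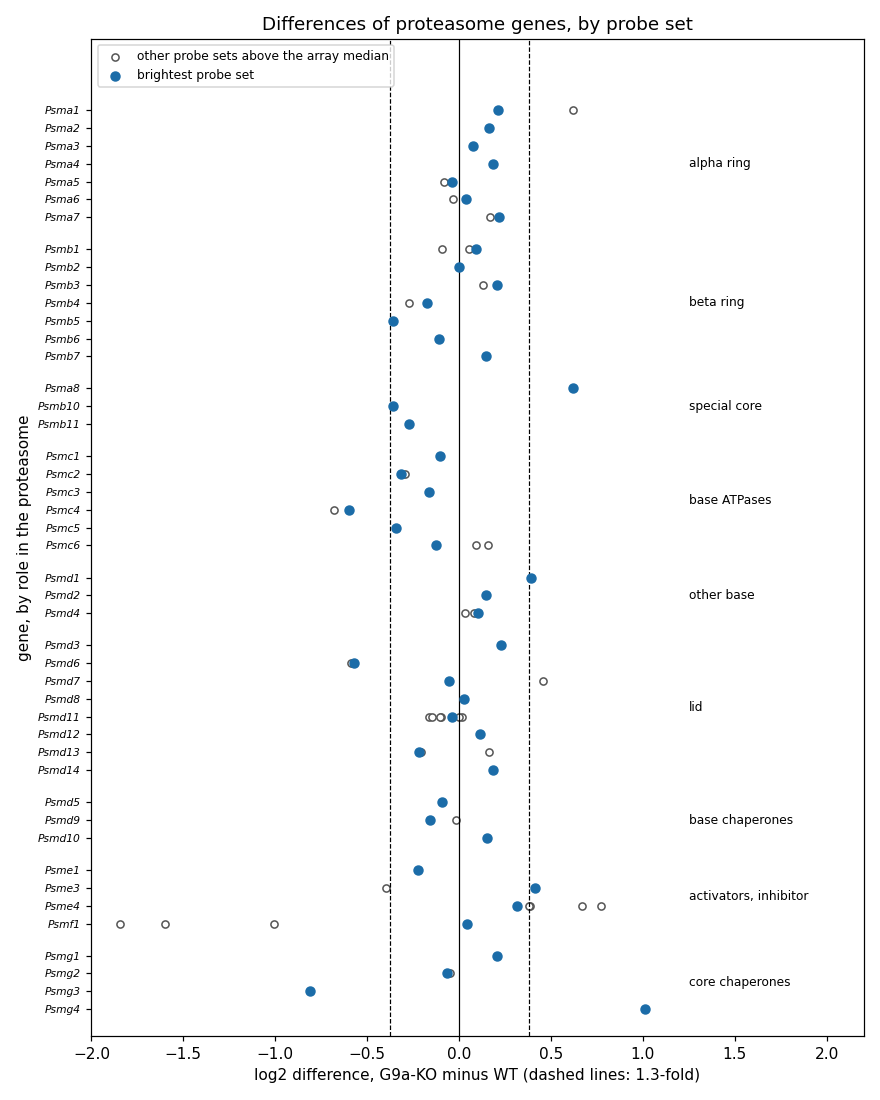
Log2 difference, G9a-KO minus WT (horizontal axis), of 45 proteasome genes by role, 1 row per gene, for the brightest probe set (filled blue) and other probe sets above the array median (open circles), with 1.3-fold as dashed lines. All 6 base ATPases lie left of 0 by their brightest probe set, and *Psmg4* (1.01) and *Psmg3* (-0.81) lie farthest apart by theirs. The 3 open circles of *Psmf1* lie between -1.85 and -1.01.

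The ATPases of the base, *Psmc1* to *Psmc6*, formed the role group in which every brightest probe set read below 0 (6 of 6). Their median was -0.24 and the range -0.60 to -0.10. Above 0 were 53.4% of all genes and 48.9% of genes above the 75th percentile. *Psmc4* was the member past the fold, at 4.37 in G9a-KO and 4.97 in WT, 1.52-fold lower in G9a-KO. Its second probe set, at 3.14 in G9a-KO and 3.82 in WT, gave -0.68, and it passed 1.3-fold in all 9 alternative settings. *Psmc5* followed at 4.38 in G9a-KO and 4.72 in WT (-0.34), and *Psmc2* at 4.68 in G9a-KO and 4.997 in WT (-0.32, and -0.30 by a second probe set). *Psmc3* differed by -0.16, *Psmc6* by -0.12 and *Psmc1* by -0.10, values no wider than those of the control RNA. All 6 were below 0 under each of the 4 other scalings too. Of these, no shift and median centring lower every difference. Quantile normalization and lowess correction also lowered those of all 6 ATPases. All 4 thus moved these values further below 0, so the unchanged sign adds no support. With the rules that let other probe sets of *Psmc6* count, which gave 0.093 and 0.16, 5 of 6 were below 0.

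The other subunits of the base read above 0. *Psmd1*, a scaffold subunit of the base like *Psmd2*, stood at 4.39 in G9a-KO and 4.00 in WT and was 1.31-fold higher in G9a-KO. With 1 probe set, its value could move only under the 4 other scalings. It fell within 1.3-fold in each of them, where its lowest difference was 0.29. *Psmd2*, a docking site for proteins that deliver ubiquitinated substrates, stood at 4.45 in G9a-KO and 4.30 in WT (0.15). *Psmd4*, a ubiquitin receptor, stood at 4.64 in G9a-KO and 4.54 in WT (0.10). The differences of *Psmd2* and *Psmd4* were no wider than those of the control RNA. Within the base, the ATPases and the other subunits therefore lay on opposite sides of 0, by medians of -0.24 and 0.15, a contrast seen after the values were known.

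In the lid, 4 genes lay above 0 and 4 below, with a median of -0.0056 that was above 0 in 3 of 9 alternative settings. *Psmd6* was apart from the rest, at 4.19 in G9a-KO and 4.76 in WT, 1.49-fold lower in G9a-KO. Its other probe set, at 3.54 in G9a-KO and 4.13 in WT, gave -0.59, and the gene passed 1.3-fold in all 9 alternative settings. The remaining 7 genes were within 1.3-fold. *Psmd3*, a structural subunit, was at 2.81 in G9a-KO and 2.58 in WT (0.23), and *Psmd13* at 2.90 in G9a-KO and 3.12 in WT (-0.22, with -0.21 and 0.16 by other probe sets above the median). *Psmd14*, the enzyme that cuts off the ubiquitin chain, was at 5.09 in G9a-KO and 4.91 in WT (0.18), while *Psmd7*, its partner in the complex, was at 3.47 in G9a-KO and 3.53 in WT (-0.056), and a dim probe set of *Psmd7* gave 0.46. *Psmd8*, *Psmd11* and *Psmd12* differed by 0.025, -0.036 and 0.11. *Psmd11* has the most readings, with 7 probe sets above the median, which ran from -0.16 to 0.014.

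Chaperones that help to assemble the base stayed within 1.3-fold. *Psmd10* (gankyrin) was at 2.28 in G9a-KO and 2.13 in WT (0.15), *Psmd5* at 2.48 in G9a-KO and 2.58 in WT (-0.094), and *Psmd9* at 1.18 in G9a-KO and 1.34 in WT (-0.16).

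By brightest probe set, the chaperones of the core held the widest differences of the whole family. *Psmg4* stood at 2.83 in G9a-KO and 1.82 in WT and was 2.01-fold higher in G9a-KO, the single proteasome gene past 2-fold by its brightest probe set, beside 4.61% of all genes and 4.93% of genes above the 75th percentile over 2-fold higher. *Psmg3* stood at 1.72 in G9a-KO and 2.53 in WT and was 1.75-fold lower in G9a-KO. The proteins of *Psmg3* and *Psmg4* are known to act as a pair in building the alpha ring, and their genes had opposite differences of -0.81 and 1.01. Each had 1 probe set above the array median, so neither value has a second bright reading. The dim probe set of *Psmg4* gave 0.45 and that of *Psmg3* gave -0.025. The other pair of alpha ring chaperones was close to 0, with *Psmg1* at 4.11 in G9a-KO and 3.90 in WT (0.21) and *Psmg2* at 3.33 in G9a-KO and 3.40 in WT (-0.068, and -0.05 by a second probe set).

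Among activators, *Psme4*, which encodes PA200, an activator linked to acetylated histones, was read the same way by every probe set above the median. These 5 all read higher in G9a-KO, by 0.31 to 0.77. The brightest stood at 4.87 in G9a-KO and 4.56 in WT, 1.24-fold higher and short of the 1.3-fold threshold. The next ones stood at 4.15 in G9a-KO and 3.76 in WT (0.39) and at 2.48 in G9a-KO and 1.81 in WT (0.67). The dimmest of the 5, with differences of 0.38 and 0.77, were above the median on the G9a-KO array only. For these, the filter itself favoured a higher reading in G9a-KO. *Psme3*, which encodes the nuclear PA28 gamma, stood at 2.54 in G9a-KO and 2.12 in WT (1.33-fold higher) by its brightest probe set, and at -0.76 in G9a-KO and -0.36 in WT (-0.40) by the other one above the median. Its direction therefore depended on the probe set, and the mean over all its probe sets was -0.0058. *Psme1*, an interferon-inducible PA28 subunit, stood at 2.35 in G9a-KO and 2.58 in WT (-0.22).

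The 4 probe sets of *Psmf1*, which encodes the proteasome inhibitor PI31, gave the widest disagreement in the family. The brightest stood at 0.76 in G9a-KO and 0.72 in WT (0.04). The next stood at -1.18 in G9a-KO and 0.67 in WT, 3.60-fold lower in G9a-KO. The others stood at -2.19 in G9a-KO and -0.59 in WT (3.03-fold lower) and at -3.02 in G9a-KO and -2.02 in WT (2.01-fold lower). These last were above the median on the WT array only, which favours a lower reading in G9a-KO. The probe sets of *Psmf1* thus gave no common size of difference. The positions of these probe sets on the transcript were not analysed here.

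**Figure D4:**
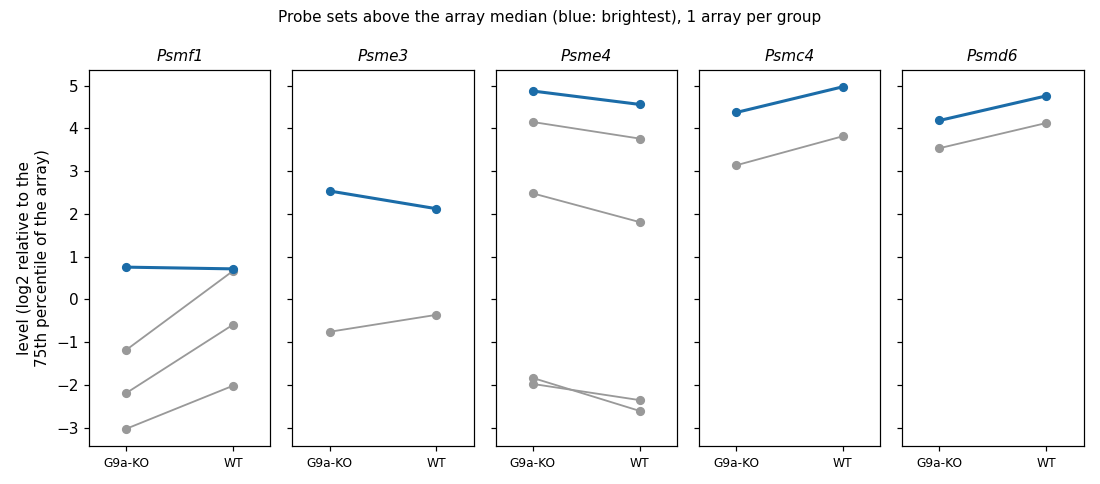
Level (vertical axis, log2 minus the array's 75th percentile) of each probe set above the array median on the G9a-KO array (left) and the WT array (right), joined by lines, for 5 genes, with the brightest probe set in blue. The 3 grey lines of *Psmf1* run down towards G9a-KO, with differences of -1.85 to -1.01, while its blue line is flat. The lines within *Psme4*, *Psmc4* and *Psmd6* each run the same way. Lines of *Psmf1* with -1.60 and -1.01 pass the median on the WT array only. Those of *Psme4* with 0.38 and 0.77 pass it on the G9a-KO array only.

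With 1 array per group, probe sets of the same gene were the only repeated readings. For 14 proteasome genes a second probe set also lay above the 75th percentile. The difference between its reading and that of the brightest was 0.070 in the median (0.012 to 0.22), beside 0.13 for 2341 genes of the array with such a pair. Both probe sets had the same sign for 12 of the 14 (85.7%), beside 1888 of 2341 (80.6%) on the array, and the exceptions were *Psma6* and *Psmc6*. Such pairs share the RNA and the array, so they measure the reading of the probes and not the spread between cultures. They cover *Psmc4* and *Psmd6*, but not *Psma8*, *Psmd1*, *Psme3*, *Psmg3* or *Psmg4*.

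Genes that work with the proteasome were read from a list of 30 entries, of which 21 were measured and 9, *Adrm1* among them, were not analysed here. Of the 21, 5 were over 1.3-fold higher and 2 lower in G9a-KO, 23.8% and 9.52% of them, beside 17.4% and 17.2% of all genes, with a median of 0.059. *Nfe2l1*, the transcription factor that raises proteasome subunit genes when the proteasome is inhibited, stood at 2.13 in G9a-KO and 1.45 in WT, 1.60-fold higher in G9a-KO by its one probe set. Its relative *Nfe2l2*, known for the oxidative stress response, stood at 2.96 in G9a-KO and 2.59 in WT (1.29-fold, short of the threshold). *Ngly1*, which encodes an enzyme that removes sugar chains from proteins, stood at 0.069 in G9a-KO and 0.16 in WT (-0.094).

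Some genes for proteins that bind the assembled particle were also past 1.3-fold higher in G9a-KO. *Usp14*, a deubiquitinase on the regulatory particle, stood at 3.05 in G9a-KO and 2.43 in WT (1.54-fold higher), and its 3 other probe sets above the median gave 0.35 to 0.90. *Ecpas*, an adaptor that tethers core and regulatory particle, stood at 1.90 in G9a-KO and 1.39 in WT (1.43-fold higher). Other probe sets above the median gave 0.51 and 0.72, the latter above it on the G9a-KO array only. *Uchl5*, the other deubiquitinase of the particle, was at 3.84 in G9a-KO and 3.78 in WT (0.059), *Sem1*, a small lid subunit outside the naming rule, at 3.86 in G9a-KO and 3.85 in WT (0.019), and the core maturation factor *Pomp* at 3.94 in G9a-KO and 4.09 in WT (-0.15). The pattern among these partners was thus uneven.

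Among shuttle and stress factors, *Zfand5*, a proteasome-activating zinc finger protein, stood at 4.12 in G9a-KO and 3.51 in WT (1.52-fold higher), with 0.57 and 0.47 by dimmer probe sets above the median, but its next brightest stood at 2.88 in G9a-KO and 3.15 in WT (-0.27). *Ufd1*, a cofactor of the unfolding ATPase *Vcp*, stood at 1.72 in G9a-KO and 1.24 in WT (1.39-fold higher), and its other probe set at 0.16 in G9a-KO and 0.53 in WT (-0.37), so that both genes lack an agreed direction. *Vcp* itself was at 4.62 in G9a-KO and 4.37 in WT (0.25). Lower in G9a-KO were *Ubqln4*, a shuttle factor, at 1.67 in G9a-KO and 2.18 in WT (1.42-fold), and *Zfand2a*, an arsenite-inducible proteasome partner, at 0.48 in G9a-KO and 0.92 in WT (1.36-fold, and -0.52 and -0.61 by other probe sets). The ubiquilin *Ubqln2* was at 3.22 in G9a-KO and 2.84 in WT (0.37, just within 1.3-fold).

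**Figure D5:**
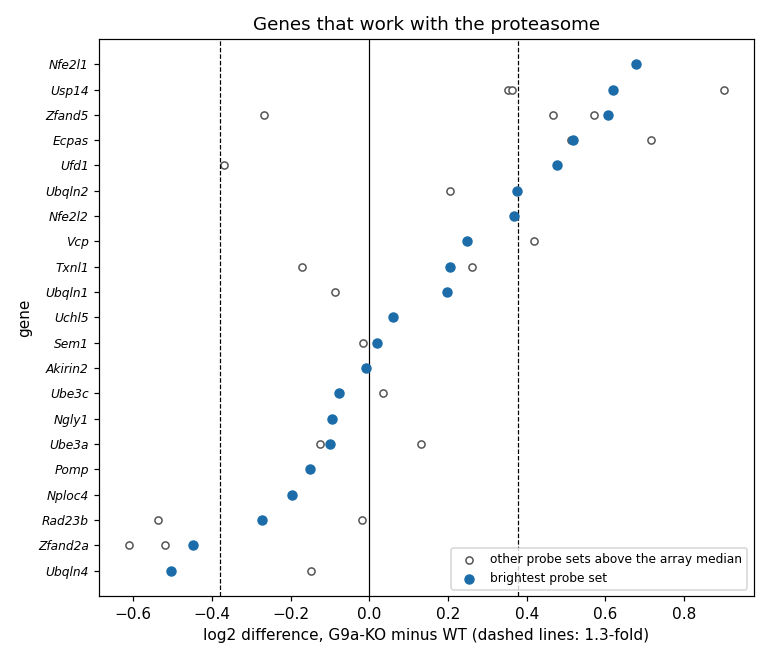
Log2 difference, G9a-KO minus WT (horizontal axis), of 21 genes that work with the proteasome, sorted by difference, for the brightest probe set (filled blue) and other probe sets above the array median (open circles), with 1.3-fold as dashed lines. *Nfe2l1* (0.68) and *Usp14* (0.62) lie at the top and *Ubqln4* (-0.50) at the bottom, and open circles of *Zfand5* and *Ufd1* lie on the other side of 0.

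Promoter sequence was searched for 3 motifs on both strands in the 250 bases before each start in the RefSeq promoter table (GRCm38.p6), which holds 39 promoters for 37 of the 45 genes and 32851 in all. The core of the antioxidant response element, TGACNNNGC, which *Nfe2l1* and *Nfe2l2* proteins bind, was found in 5 of the 39 (12.8%), beside 10.2% of all promoters. The CCAAT box was found in 13 (33.3%), beside 33.8%. The E-box CACGTG, a site that MAX, the factor the study is about, binds with its partners, was found in 4 (10.3%), beside 6.02%. Matches of different motifs did not overlap in these promoters (0 overlaps). A match describes letters and not a bound site.

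The antioxidant response element matches are shown as the motif known from proteasome gene promoters, with the match in capitals and up to 20 bases of flank, on the strand of the gene. They lay at chr14:54618014-54618062 (*Psmb5*, minus strand), chr11:70525328-70525356 (*Psmb6*, plus strand), chr14:45329577-45329625 (*Psmc6*, plus strand), chr11:107479278-107479309 (*Psmd12*, plus strand) and chr5:123228139-123228187 (*Psmd9*, plus strand). The matches began 47, 9, 227, 247 and 31 bases before the start, and those of *Psmc6* and *Psmd12* are on the opposite strand and so appear reverse-complemented.
Psmb5: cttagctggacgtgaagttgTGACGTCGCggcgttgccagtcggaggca
Psmb6: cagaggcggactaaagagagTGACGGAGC
Psmc6: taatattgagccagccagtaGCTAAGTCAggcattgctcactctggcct
Psmd12: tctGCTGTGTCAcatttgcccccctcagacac
Psmd9: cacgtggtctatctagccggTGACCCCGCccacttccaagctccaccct

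The 5 genes with this match differed by -0.36 (*Psmb5*), -0.16 (*Psmd9*), -0.12 (*Psmc6*), -0.11 (*Psmb6*) and 0.11 (*Psmd12*), with a median of -0.12. Of these 5, 0 passed 1.3-fold, beside 15.6% of proteasome genes and 34.6% of all genes.

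The E-box matches are shown because the arrays belong to a study of MAX and G9a. They lay at chr9:54950699-54950744 (*Psma4*, plus strand), chr8:105938483-105938528 (*Psmb10*, minus strand), chr5:123228119-123228164 (*Psmd9*, plus strand) and chr11:101316149-101316194 (*Psme3*, plus strand), and began 140, 116, 51 and 44 bases before the start. The window of *Psmd9* overlaps the one printed above.
Psma4: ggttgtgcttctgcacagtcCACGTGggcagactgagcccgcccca
Psmb10: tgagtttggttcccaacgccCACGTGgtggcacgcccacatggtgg
Psmd9: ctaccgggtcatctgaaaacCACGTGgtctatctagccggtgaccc
Psme3: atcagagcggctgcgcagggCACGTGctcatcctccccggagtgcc

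The 4 genes with an E-box differed by 0.41 (*Psme3*), 0.19 (*Psma4*), -0.16 (*Psmd9*) and -0.36 (*Psmb10*), in both directions. Of the 37 genes with a promoter entry, 17 had 0 matches to any of the 3 motifs in this window. Among the genes past 1.3-fold these were *Psmc4*, *Psmd1*, *Psmd6*, *Psmg3* and *Psmg4*, whereas *Psme3* had 2 matches and *Psma8* had no promoter entry. The share of all promoters without a match was not computed, and a link to the differences was not tested.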

How the data were processed

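Total RNA of 1 G9a-KO and 1 WT ESC sample (200 ng each) was labelled and hybridized to an Affymetrix mouse genome expression array. The authors deposited log2 values made with RMA in R 3.2.1, which corrects background, quantile-normalizes probe intensities and summarises them into 45101 probe sets (1.82 to 14.3), so a difference in total RNA per cell cannot be seen. The tool names come from the submitters' processing notes, and no package is named. From these values the 75th percentile of each array was subtracted and differences were taken, as the methods of the study describe. Probe sets were named from the platform annotation. Of them, 34958 had 1 gene symbol, and 932 with several were left out. With 1 array per group no test was run, and precision is limited by having so few arrays.

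Genes are named with values by rule: *Ehmt2*, members past 1.3-fold, the 2 highest and 2 lowest of each role group, members below both array medians, members with opposed probe sets, *Psmb8* and *Psmb9*, and pathway genes past 1.3-fold. Others named were chosen after their values were seen. The members and lists were chosen with earlier results of these data known. The alternatives were other scalings (no shift, median, quantile, lowess with span 0.3), filters, probe set rules and thresholds. Steps were tested on simulated data. Python 3.11.15, pandas 2.3.3 and statsmodels 0.14.6 were used.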

Additional observations from a re-analysis of the deposited data

How the results depend on the processing

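The median difference of the 45 proteasome genes stayed between -0.077 (centring on the array median) and 0.11 (most divergent probe set of each gene), and it was below 0 with no shift (-0.032), quantile normalization (-0.028) and lowess correction (-0.0013). There is no replicate spread to set these moves against. The counts of genes past 1.3-fold (4 higher, 3 lower) became 2 higher and 6 lower with no shift (beside 14.7% and 19.9% of all genes) and 2 and 7 with median centring (13.0% and 22.3%), which lost the calls of *Psmd1* and *Psme3* and added *Psmb5*, *Psmb10* and *Psmc5* in both cases and *Psmc2* in the second. The most divergent probe set gave 9 higher and 4 lower (23.3% and 21.0%), at least 1 probe set past the fold gave 9 higher and 5 lower (24.6% and 22%), the constitutive subunits of core and regulatory particle alone gave 1 higher and 2 lower of 31 (17.4% and 17.2%), and 2-fold gave 1 higher and 0 lower (4.61% and 3.76%). Of differences past 1.3-fold, directions turned for *Psme3* (-0.0058 by the mean of its probe sets and -0.035 by the dimmest), *Zfand5* (-0.27) and *Ufd1* (-0.37) without probe sets that can bind several transcripts, and *Ufd1* (-0.37), *Ehmt2* (0.20) and *Psmb8* (0.17) by the dimmest probe set. Over all alternatives, 13 of the 45 proteasome genes and 6 of the 9 role group medians changed sign at least once. Under the 4 other scalings alone, 6 genes (*Psma3*, *Psma6*, *Psmb1*, *Psmb2*, *Psmd8* and *Psmf1*) and 2 medians did. With other probe sets, *Psmd13* reached 0.57 and *Psmf1* -1.85. *Psma8*, *Psmc4*, *Psmd6* and *Psmg4* passed 1.3-fold in 9 of 9 alternatives and *Psmg3* in 8 of 9. For a gene with 1 probe set, such as *Psma8*, *Psmd1* or *Psmb5*, only the 4 other scalings could move the value. The filters and probe set rules repeat it. Readings near the array median, such as those of *Psmb8*, are limited by background. No paired analysis was possible because each group has 1 array.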
